A study of Mus musculus with 12 samples.

Results

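Transcripts of the cellular response to low oxygen, namely Hif1a, Vegfa, Car9, Adm, Ankrd37, Bnip3, Egln3, Ndrg1, Ddit4 and P4ha1, were followed in subcutaneous pancreatic tumors. These 10 genes were chosen by name, out of the 22630 genes with a row in each tumor's table. All 10 were among the 17561 genes with at least 10 counts over the 12 tumors. The study asked what continued expression of mutant p53R270H does in tumors grown from KCip53-1, a mouse pancreatic ductal adenocarcinoma line whose cells carry, among other alleles, Ptf1a-Cre, TREp53R270H and R26rtTa/rtTa, in all groups alike. In this design doxycycline (dox) switches on p53R270H through a tetracycline-responsive element, and Cre, expressed in the pancreatic epithelium, activates the dox-dependent activator. The line was sorted from a primary tumor for dsRed, a marker of transgene expression, and per the study had lost wild-type p53. In each host, an immunodeficient NSG mouse 8 to 10 weeks old, 2 tumors were grown from 500000 injected cells. No-dox tumors never received dox (n = 4). Plus-dox tumors received 0.2 g/l dox in 5% sucrose water for 36 days (n = 4), and off-dox tumors received it for 33 days followed by 3 days without it (n = 4).

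Cells sense oxygen through the hypoxia-inducible factors (HIFs), whose alpha subunits are hydroxylated by oxygen-dependent prolyl hydroxylases and then degraded. When oxygen is low the alpha subunit persists, pairs with ARNT and binds short motifs with the core ACGTG or GCGTG near target genes for angiogenesis, pH control, mitophagy, collagen modification and growth restraint. Control of Hif1a itself is largely at the level of the protein, so its transcript level is not a measure of pathway activity. Pancreatic ductal adenocarcinoma is known as a poorly perfused tumor.

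RNA came from bulk, unsorted tumors, so host cells contributed, and fewer cells of a type and less RNA per cell cannot be told apart. Between 19845923 and 33137609 reads were counted per tumor. Counts per tumor ranged from 170 to 927 for Adm, from 352 to 1011 for Ankrd37 and from 616 to 12513 for Car9, and were at least 2387 for the other 7 genes. No batch was labeled, but the percentage of mapped reads that fell on genes was 88.4 to 89.4% in the no-dox tumors, 82.2 to 87.1% in the plus-dox tumors and 81.1 to 85.8% in the off-dox tumors. A few libraries stood apart. Plus-dox tumor 2 and off-dox tumor 4 were lowest in the mean log2 CPM of 12 epithelial genes, and plus-dox tumors 3 and 4 alone held the transcript Xist above 0.0485 RPKM, at 4.25 and 4.89 RPKM. Trp53, the targeted gene, read 48.2, 57.4, 40.1 and 45.2 RPKM in the no-dox, 49.8, 56.0, 40.4 and 47.9 RPKM in the plus-dox and 44.2, 41.6, 45.4 and 44.9 RPKM in the off-dox tumors. Its counts did not tell the groups apart, and transgene reads were not separated from those of the endogenous gene. Of the markers of the labeled tissue, the keratins Krt8 and Krt19 were abundant in all tumors (318 to 972 and 98.1 to 352 RPKM), whereas the acinar genes Ptf1a, Amy2a5 and Prss1 were listed at 0.

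Start-site sequences were found for 9 of the 10 genes in the RefSeq table (GRCm38.p6; windows from 250 bases before to 50 after the start), Ndrg1 not being matched. The letters ACGTG, searched on both strands, occurred in a window of 8 of the 9 genes (Vegfa through the second of its windows, Adm in none), compared with 19.6% of all 32851 windows of that length. GCGTG occurred in 6 of the 9 genes and in 32.4% of all windows. The palindrome CACGTG, in which ACGTG is read on both strands, was present for Hif1a and Bnip3 and in 7.2% of all windows. These background shares are per window, whereas a gene counted if any of its windows held a match. A match describes the letters, not a bound site. The 250 bases before the start are printed for 5 genes, first for Ankrd37, Bnip3 and P4ha1, since Bnip3 went with each of the other 2 tumor by tumor, and then for Egln3 and Car9, which went with each other. Each is written 5′ to 3′ on the strand of the gene, with ACGTG or its reverse complement in capitals.
Ankrd37 (chr8:45999851-46000100, minus strand): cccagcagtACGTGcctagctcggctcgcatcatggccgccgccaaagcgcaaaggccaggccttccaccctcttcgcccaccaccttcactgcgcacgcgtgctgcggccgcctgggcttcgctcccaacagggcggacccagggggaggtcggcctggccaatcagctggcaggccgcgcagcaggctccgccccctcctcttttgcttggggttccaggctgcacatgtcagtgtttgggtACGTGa
Bnip3 (chr7:138909507-138909756, minus strand): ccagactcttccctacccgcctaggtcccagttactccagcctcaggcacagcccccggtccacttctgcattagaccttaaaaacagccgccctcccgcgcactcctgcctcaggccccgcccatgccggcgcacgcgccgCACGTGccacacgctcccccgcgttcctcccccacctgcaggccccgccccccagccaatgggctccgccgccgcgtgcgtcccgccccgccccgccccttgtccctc
P4ha1 (chr10:59323046-59323295, plus strand): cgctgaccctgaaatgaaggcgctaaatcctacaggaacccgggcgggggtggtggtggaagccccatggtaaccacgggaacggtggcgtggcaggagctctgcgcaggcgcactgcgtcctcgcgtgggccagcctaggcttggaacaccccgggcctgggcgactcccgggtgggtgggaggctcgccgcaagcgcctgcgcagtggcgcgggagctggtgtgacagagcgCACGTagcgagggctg
Egln3 (chr12:54203875-54204124, minus strand): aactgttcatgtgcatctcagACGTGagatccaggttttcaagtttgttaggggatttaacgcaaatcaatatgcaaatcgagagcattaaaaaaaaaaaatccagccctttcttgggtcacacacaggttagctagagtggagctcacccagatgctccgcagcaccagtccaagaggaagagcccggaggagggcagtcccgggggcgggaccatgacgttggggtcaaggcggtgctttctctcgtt
Car9 (chr4:43506776-43507025, plus strand): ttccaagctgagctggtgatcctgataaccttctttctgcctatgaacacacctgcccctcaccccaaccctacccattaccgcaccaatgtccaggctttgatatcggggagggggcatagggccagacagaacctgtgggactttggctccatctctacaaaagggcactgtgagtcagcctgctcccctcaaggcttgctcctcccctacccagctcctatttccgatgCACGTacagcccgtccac

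Ankrd37 held 2 separate matches, the 2 of Bnip3 were the strands of 1 CACGTG, and the other 3 genes held 1 match each. The match lay 18 bases before the start in Car9, 16 in P4ha1 and 6 for the nearer match in Ankrd37, but 229 in Egln3. Elsewhere in the text, gene positions are those of the authors' mm9 annotation and were not converted.

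Between treatment groups the 10 genes differed little relative to the spread between tumors of a group. None met the limits for differential expression (adjusted p under 0.1, more than 1.5-fold) in plus-dox against no-dox tumors, where 0% of all genes tested did so by edgeR's quasi-likelihood test with Benjamini-Hochberg adjustment. None met them in off-dox against no-dox tumors, where 1.34% of genes did, or in off-dox against plus-dox tumors, where again 0% did. At an unadjusted p under 0.05 the members counted 0, 2 and 0 in these comparisons, with a background of 13.7%, 20.4% and 3.06% of genes. The 2 were Vegfa and Ankrd37, both higher in the off-dox tumors, as were 10.9% of genes at that level. DESeq2 also placed Adm (plus-dox against no-dox) and Ankrd37 (off-dox against plus-dox) under that level. For none of the 10 genes did the groups separate without overlap in TMM-scaled log2 CPM (counts scaled to library size), compared with 8.86%, 11.5% and 1.40% of genes. Median log2 fold changes over the 10 genes were 0.05, 0.19 and 0.07, beside 0.013, 0.007 and -0.001 over all genes tested. The no-dox tumors serve in the first and the second of these comparisons, so the values are not independent.

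**Figure D1:**
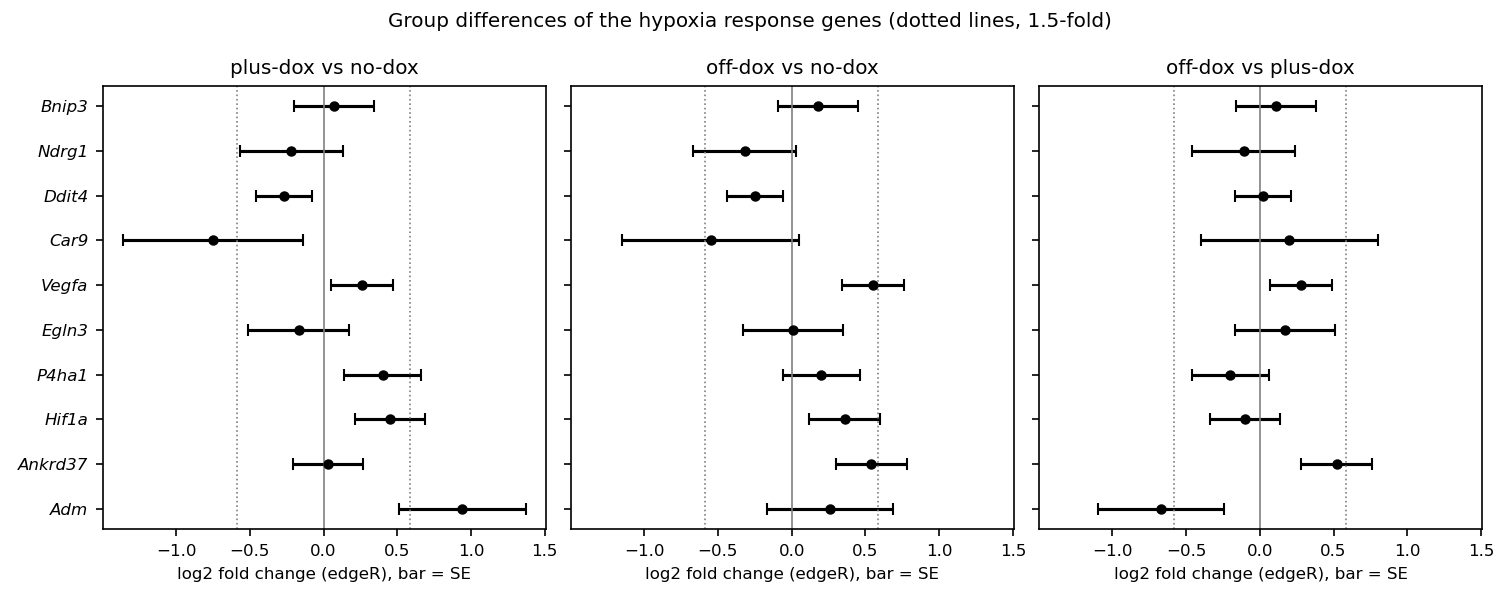
Log2 fold change (x axis, edgeR; bars are the SE) of each hypoxia response gene in the 3 comparisons, 4 tumors per group. Adm has the largest positive value (0.94, plus-dox against no-dox) and Car9 the lowest (-0.75), and the dotted lines mark a 1.5-fold change.

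In the values below, tumors are given in the order 1 to 4 of each group, in deposited RPKM, reads scaled to exonic length and to the number of mapped reads. Hif1a, the oxygen-regulated alpha subunit (chr12:75008854-75048517, plus strand), read 28.6, 26.2, 33.4 and 30.2 RPKM in the no-dox tumors, 28.0, 59.7, 38.7 and 34.0 RPKM in the plus-dox tumors and 26.8, 42.0, 33.6 and 45.9 RPKM in the off-dox tumors. Plus-dox tumor 2 was highest and off-dox tumor 4 followed it, and the groups overlapped. The log2 fold change was 0.45 ± 0.24 (SE) in plus-dox and 0.36 ± 0.24 in off-dox against no-dox tumors (edgeR, adjusted p = 0.42 for both). Without plus-dox tumor 2 and off-dox tumor 4 these fell to 0.19 ± 0.18 and 0.22 ± 0.18 (edgeR, adjusted p = 0.66 and 0.49).

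Egln3, a prolyl hydroxylase that marks HIF alpha subunits for degradation and is itself induced by HIF (chr12:55279968-55304861, minus strand), read 58.8, 58.2, 48.0 and 94.9 RPKM in the no-dox tumors. It read 49.1, 34.8, 82.3 and 63.3 RPKM in the plus-dox tumors and 97.6, 78.0, 45.3 and 37.1 RPKM in the off-dox tumors. High and low tumors occurred in each group, with off-dox tumor 1 and no-dox tumor 4 at the top and plus-dox tumor 2 and off-dox tumor 4 at the bottom. Log2 fold changes were -0.17 ± 0.34 in plus-dox and 0.01 ± 0.34 in off-dox against no-dox tumors (edgeR, adjusted p = 0.83 and 0.99).

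Vegfa, the main angiogenic ligand induced by hypoxia (chr17:46153943-46169326, minus strand), read 75.9, 57.7, 64.9 and 84.8 RPKM in the no-dox tumors, 67.3, 74.6, 113 and 80.7 RPKM in the plus-dox tumors and 96.3, 131, 86.3 and 92.2 RPKM in the off-dox tumors. In deposited RPKM the lowest off-dox tumor still exceeded the highest no-dox tumor, by 86.3 against 84.8 RPKM at the nearest, whereas no-dox tumor 4 and off-dox tumor 3 crossed after TMM scaling. The log2 fold change in off-dox against no-dox tumors was 0.55 ± 0.21, the smallest unadjusted p among the 10 genes (0.021; edgeR, adjusted p = 0.17). With DESeq2 the same difference had an adjusted p of 0.088, but at a log2 fold change of 0.55 it stayed under 1.5-fold. The share of reads on genes moved with the groups, and with it as a covariate the log2 fold change was 0.02 ± 0.34 (edgeR, adjusted p = 1). The part of that share in the result was not tested further. Host cell markers also moved in this comparison. The summed level of 9 neutrophil genes was 48.2 to 70.1 RPKM in the no-dox and 74.7 to 159 RPKM in the off-dox tumors, and that of 12 T and NK cell genes was 5.10 to 9.80 and 10.0 to 27.8 RPKM, with 3 and 2 of the genes called by edgeR. Of 12 skeletal muscle genes 1 was called, but their summed levels overlapped, at 12.4 to 215 RPKM in the no-dox and 13.8 to 1467 RPKM in the off-dox tumors. Of all genes tested, 1.34% were called in this comparison. Across the 12 tumors Vegfa had r = 0.53 and rho = 0.57 with the neutrophil mean (permutation p = 0.074 and 0.057), with r = 0.91 without no-dox tumor 4 and plus-dox tumor 2 and r = 0.23 after centering on group means. With the same mean r was 0.73 for Hif1a, 0.64 for Adm and 0.62 for P4ha1 (permutation p = 0.0073, 0.025 and 0.031). For Car9 it was -0.63 (permutation p = 0.025), and for Egln3, Ndrg1 and Ddit4 -0.22, -0.23 and -0.33. None of these relations had an adjusted permutation p under 0.05. The T and NK cell genes were low, at a mean log2 CPM of -1.04 to 0.89. The hosts were immunodeficient, and whether these transcripts came from T or NK cells was not tested. The part of the cells behind any of these marker transcripts in the values of Vegfa, or of Ankrd37 below, was not tested. In plus-dox against no-dox tumors the log2 fold change was 0.26 ± 0.21 (edgeR, adjusted p = 0.56), and without plus-dox tumors 3 and 4 it was -0.0044 ± 0.21.

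Adm encodes adrenomedullin, a vasodilating and angiogenic peptide (chr7:117771183-117773333, plus strand). It read 4.85, 6.27, 8.35 and 6.52 RPKM in the no-dox tumors, 5.16, 20.5, 17.3 and 5.88 RPKM in the plus-dox tumors and 10.6, 8.76, 6.70 and 4.82 RPKM in the off-dox tumors. Plus-dox tumors 2 and 3 stood above all others, while plus-dox tumors 1 and 4 lay within the no-dox range. The resulting log2 fold change in plus-dox against no-dox tumors, 0.94 ± 0.43, was the largest among the 10 genes and did not pass the test (edgeR, adjusted p = 0.37). Leaving out plus-dox tumor 2 lowered it to 0.58. In off-dox against plus-dox tumors it was -0.67 ± 0.43 (edgeR, adjusted p = 1).

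Car9 encodes carbonic anhydrase IX, which acidifies the space around hypoxic cells while buffering their interior (chr4:43519898-43526597, plus strand). It read 108, 122, 89.0 and 172 RPKM in the no-dox tumors, 79.6, 9.59, 117 and 83.3 RPKM in the plus-dox tumors and 136, 111, 55.3 and 29.6 RPKM in the off-dox tumors. Plus-dox tumor 2 and off-dox tumor 4 were lowest, and the highest tumor had 18.0 times the level of the lowest. Its log2 fold change was -0.75 ± 0.61 in plus-dox and -0.55 ± 0.60 in off-dox against no-dox tumors (edgeR, adjusted p = 0.57 and 0.63). Without plus-dox tumor 2 and off-dox tumor 4 these became -0.39 ± 0.31 and -0.27 ± 0.30 (edgeR, adjusted p = 0.59 and 0.63). Without plus-dox tumors 3 and 4 the first was -1.49 ± 0.78 (edgeR, adjusted p = 0.74). Without plus-dox tumor 3 alone, the remaining plus-dox tumors lay below all no-dox tumors for Car9 and for Ddit4. Leaving out any other single tumor separated no member in this comparison. The share of all genes that separated without plus-dox tumor 3 is not given here.

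Bnip3, a mitochondrial receptor for mitophagy (chr7:146082519-146101189, minus strand), read 113, 87.8, 159.6 and 161 RPKM in the no-dox tumors, 93.9, 135, 197 and 117 RPKM in the plus-dox tumors and 144, 183, 132 and 125 RPKM in the off-dox tumors. Its group means lay close together, at 130.5 ± 36.1, 136 ± 44.1 and 146 ± 25.8 RPKM (SD, n = 4 each), and the tumors of a group differed more than the groups did. The log2 fold change was 0.07 ± 0.27 in plus-dox and 0.18 ± 0.27 in off-dox against no-dox tumors (edgeR, adjusted p = 0.91 and 0.73).

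Ankrd37, a small ankyrin repeat protein gene known as a HIF target (chr8:47082262-47085204, minus strand), read 20.5, 16.5, 22.6 and 24.7 RPKM in the no-dox tumors, 16.3, 18.5, 30.4 and 19.5 RPKM in the plus-dox tumors and 38.9, 35.1, 23.7 and 23.4 RPKM in the off-dox tumors. Off-dox tumors 1 and 2 were the highest of the 12, and off-dox tumors 3 and 4 lay just below no-dox tumor 4. The log2 fold change was 0.54 ± 0.24 in off-dox against no-dox tumors (unadjusted p = 0.044; edgeR, adjusted p = 0.23) and 0.52 ± 0.24 in off-dox against plus-dox tumors (edgeR, adjusted p = 1). With the share of reads on genes as a covariate the first was 0.29 ± 0.43. Without no-dox tumor 4 the off-dox tumors lay above the other no-dox tumors for both Ankrd37 and Vegfa, and without plus-dox tumor 3 they lay above the other plus-dox tumors for the same 2 genes. With all tumors neither gene separated in log2 CPM. The share of all genes that separated in these smaller sets is not given here.

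P4ha1 encodes the catalytic alpha subunit of collagen prolyl 4-hydroxylase, which stabilizes collagen (chr10:58786044-58836052, plus strand). It read 28.6, 27.3, 35.9 and 36.6 RPKM in the no-dox tumors, 24.7, 55.0, 55.5 and 32.4 RPKM in the plus-dox tumors and 35.1, 42.6, 30.0 and 37.6 RPKM in the off-dox tumors. As for Adm, plus-dox tumors 2 and 3 were highest, and plus-dox tumor 1 was the lowest of all. Log2 fold changes were 0.40 ± 0.26 in plus-dox and 0.20 ± 0.26 in off-dox against no-dox tumors (edgeR, adjusted p = 0.48 and 0.68). The first was 0.21 without plus-dox tumor 3, 0.25 without plus-dox tumor 2 and 0.60 without plus-dox tumor 1.

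Ddit4 (REDD1), a stress-induced inhibitor of mTORC1 (chr10:59412423-59414518, minus strand), read 105, 88.3, 116 and 122 RPKM in the no-dox tumors, 83.1, 76.6, 108 and 87.4 RPKM in the plus-dox tumors and 119, 83.4, 64.1 and 89.8 RPKM in the off-dox tumors. It varied least of the 10 genes, by 1.90 times between the extremes, and the groups overlapped. Its log2 fold change was -0.27 ± 0.19 in plus-dox and -0.25 ± 0.19 in off-dox against no-dox tumors (edgeR, adjusted p = 0.52 and 0.48).

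Ndrg1, a stress-responsive gene linked to differentiation and metastasis restraint (chr15:66760880-66801203, minus strand), read 115, 102, 109.7 and 221 RPKM in the no-dox tumors, 89.7, 89.1, 170.5 and 118 RPKM in the plus-dox tumors and 159.8, 130.0, 85.0 and 59.0 RPKM in the off-dox tumors. No-dox tumor 4 was highest and off-dox tumor 4 lowest. The log2 fold change was -0.22 ± 0.35 in plus-dox and -0.32 ± 0.35 in off-dox against no-dox tumors (edgeR, adjusted p = 0.78 and 0.62). Without no-dox tumor 4 both signs turned, to 0.14 and 0.03.

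**Figure D2:**
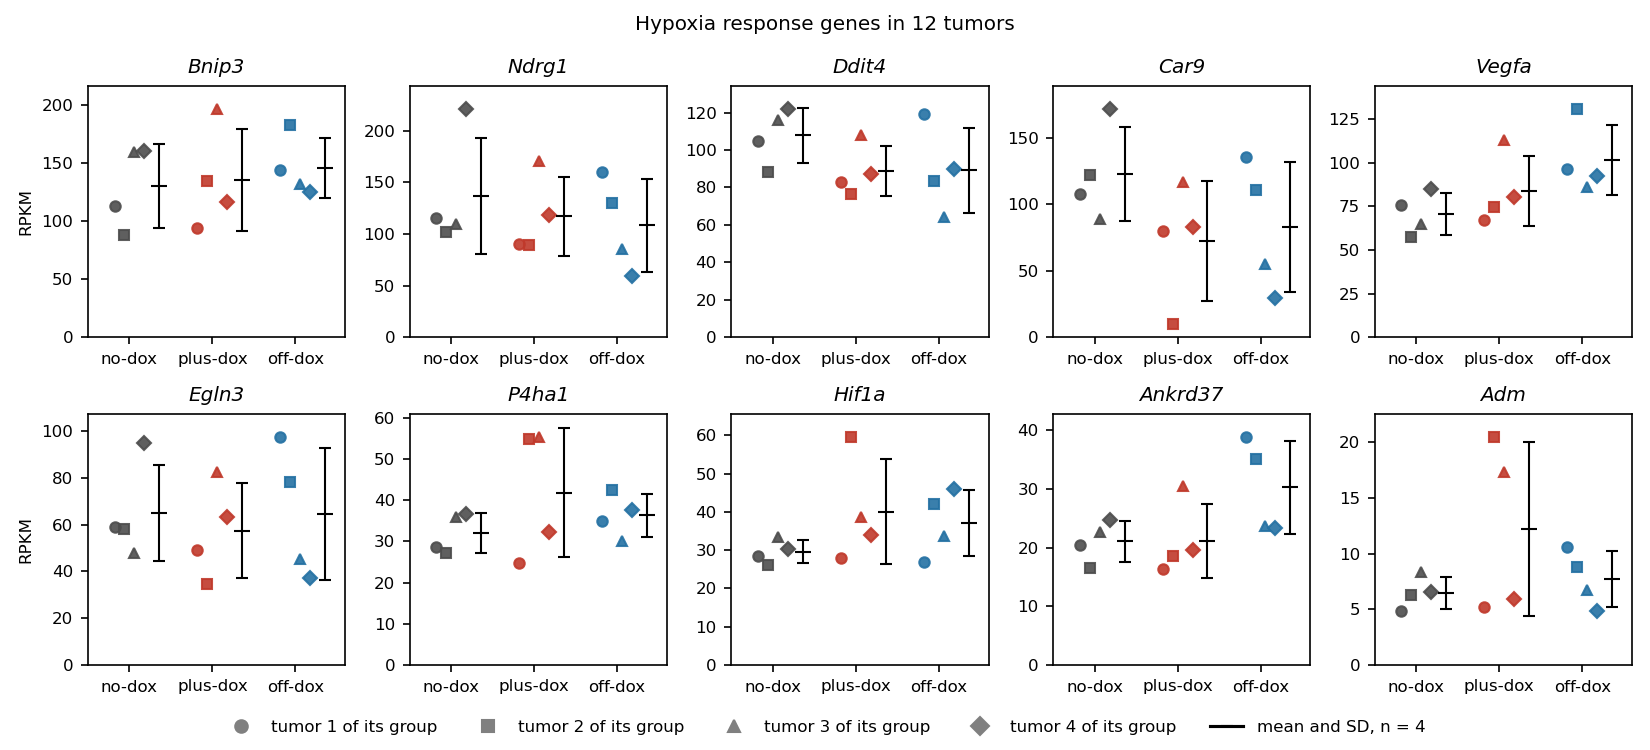
RPKM of the 10 genes (y axis, from 0) by group (no-dox, plus-dox, off-dox); symbols number the tumors of a group and black bars give mean and SD (n = 4). In RPKM the groups overlap for each gene except Vegfa in off-dox against no-dox tumors, and in TMM-scaled log2 CPM they overlap for Vegfa too. In log2 CPM 11.5% of all genes do not overlap in that comparison, and the share in RPKM is not given here. Plus-dox tumor 2 is low for Car9 (9.59 RPKM) and high for Hif1a (59.7 RPKM).

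Per exonic length, Bnip3 was the most abundant of the 10 transcripts, at 137 ± 33.4 RPKM (SD, n = 12), followed by Ndrg1 at 121 ± 44.5, Ddit4 at 95.2 ± 18.3, Car9 at 92.7 ± 45.5 and Vegfa at 85.4 ± 20.9 RPKM. Egln3 averaged 62.3 ± 21.4 RPKM, and P4ha1 and Hif1a lay side by side at 36.8 ± 9.95 and 35.6 ± 9.79 RPKM. Ankrd37 averaged 24.2 ± 7.19 and Adm 8.81 ± 5.06 RPKM. Some neighbors in this order often changed places. Bnip3 exceeded Ndrg1 in 7 of 12 tumors, Ddit4 exceeded Car9 in 6, Car9 exceeded Vegfa in 8 and P4ha1 exceeded Hif1a in 7. Other steps were steadier, with Vegfa above Egln3 in 9 tumors, Ndrg1 above Ddit4 and Egln3 above P4ha1 in 10 each, and Hif1a above Ankrd37 and Ankrd37 above Adm in 11 each.

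The tumors of a group differed more in these genes than in most. The SD of log2 CPM within groups was 1.13 for Car9, 0.71 for Adm and 0.55 for both Egln3 and Ndrg1, beside a median of 0.22 over genes with a mean above 1 RPKM. Car9 exceeded 96.3% of such genes and Adm 92.0%. The steadiest members, Ddit4 and Vegfa, still exceeded 66.8% and 68.6% of genes, at an SD of 0.30 and 0.31. Tumor by tumor, plus-dox tumor 3 ranked among the 3 highest of the 12 for 8 of the 10 genes, and plus-dox tumor 1 among the 3 lowest for 8. Off-dox tumor 1 was among the 3 highest for 6 genes, and no-dox tumor 4 and off-dox tumor 2 were for 5 genes each. Plus-dox tumor 2 was split, highest for Hif1a and Adm and lowest for Car9 and Egln3.

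**Figure D3:**
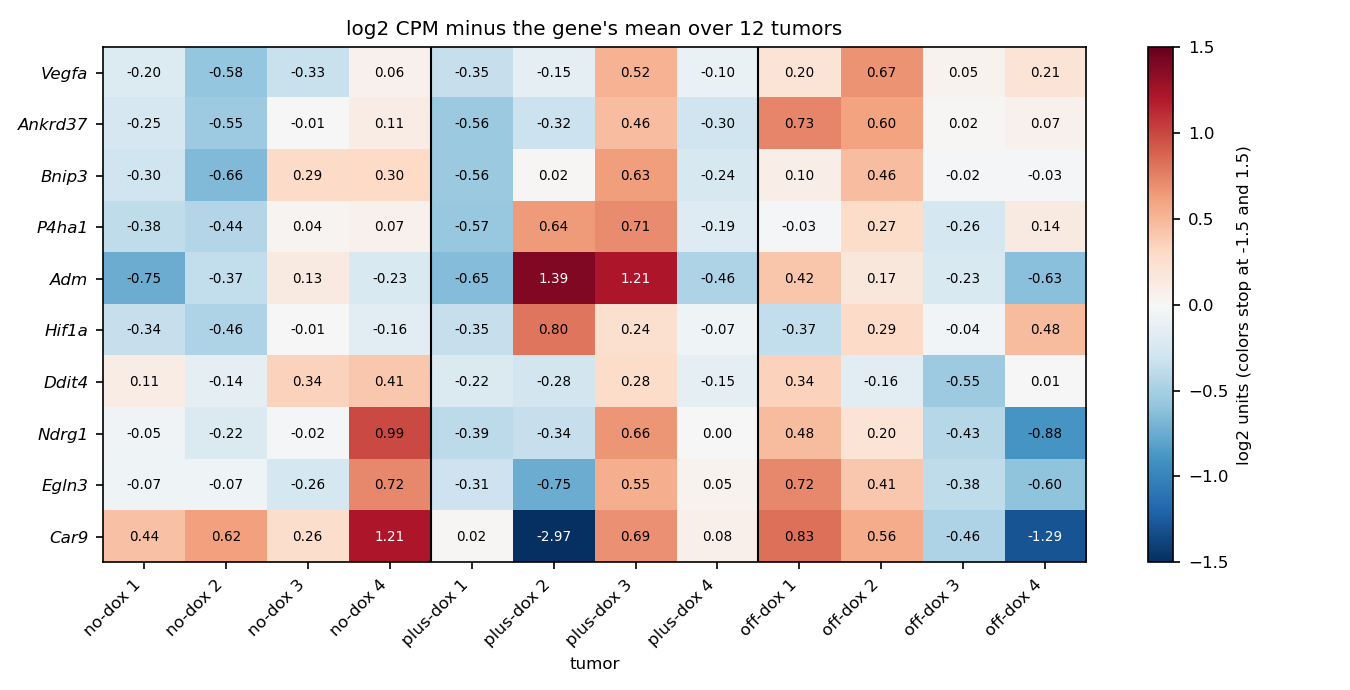
Log2 CPM of each gene minus its mean over the 12 tumors, by tumor (columns) and gene (rows), with red above and blue below the mean. Plus-dox tumor 3 is above the mean for all 10 genes, and Car9 in plus-dox tumor 2 is lowest at -2.97.

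Which of the genes went together across tumors was described by Pearson's r and Spearman's rho of log2 CPM over the 12 tumors, for all 45 pairs. Permutation p-values are unadjusted unless stated, adjustment covered all 145 relations computed (these pairs and 100 with marker lists, Benjamini-Hochberg on Pearson's r), and the labels do not say whether any of these tumors shared a mouse. Of the 45 pairs, 39 had r above 0, the median r was 0.45, and 16 had a permutation p under 0.05 (15 positive, 1 negative), of which 8, all positive, had an adjusted p under 0.05. Taking deviations from group means gave 24 pairs with an unadjusted permutation p under 0.05. Those permutations did not allow for the centering on group means, so their p-values may be too small.

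Vegfa, Ankrd37 and Bnip3 went together, and P4ha1 went with Bnip3 (adjusted permutation p = 0.014 for Vegfa with Ankrd37 and 0.027 for the pairs of Bnip3 with each of the other 3). Vegfa and Ankrd37 had r = 0.86 and rho = 0.87 (permutation p = 0.00038 and 0.0004), and r was 0.78 without the 2 tumors farthest from the Vegfa median. Ankrd37 and Bnip3 had r = 0.81 and rho = 0.78 (permutation p = 0.0019 and 0.0038), with r = 0.92 without the 2 tumors farthest from the Ankrd37 median. Bnip3 and P4ha1 had r = 0.80 and rho = 0.82 (permutation p = 0.0019 and 0.0017), with r = 0.68 without the 2 tumors farthest from the Bnip3 median. Among the other 12693 genes ranked by likeness to Ankrd37, Bnip3 was at rank 12. P4ha1 was also joined to Adm, at r = 0.85 and rho = 0.71 (permutation p = 0.00072 and 0.013), but that relation weakened to r = 0.56 without plus-dox tumors 2 and 3. With Hif1a, P4ha1 had r = 0.81 and rho = 0.80 (permutation p = 0.0013 and 0.0025), and r = 0.80 without plus-dox tumor 2 and off-dox tumor 4.

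Egln3 went with both Ndrg1 and Car9 (adjusted permutation p = 0.00073 and 0.0024), while the pair of Car9 and Ndrg1 did not pass adjustment (adjusted permutation p = 0.085). Egln3 and Ndrg1 had r = 0.91 and rho = 0.92 (permutation p = 1e-05, the smallest the resamples can give, and 8e-05), and r was 0.87 without the 2 tumors farthest from the Egln3 median. Car9 and Egln3 had r = 0.81 and rho = 0.92 (permutation p = 5e-05 for both), and Car9 and Ndrg1 had r = 0.67 and rho = 0.85 (permutation p = 0.017 and 0.00081). Without plus-dox tumor 2 and off-dox tumor 4, the tumors farthest from the Car9 median, these were r = 0.84 and 0.85. Without no-dox tumor 4 and off-dox tumor 4, the farthest from the Ndrg1 median, Car9 and Ndrg1 had r = 0.55. Car9 showed little relation to Vegfa (r = 0.12) or Bnip3 (r = 0.12). It ran against Hif1a at r = -0.75 (permutation p = 0.0067; rho = -0.51, p = 0.094), a relation that rested on plus-dox tumor 2 and off-dox tumor 4 and was r = -0.06 without them.

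**Figure D4:**
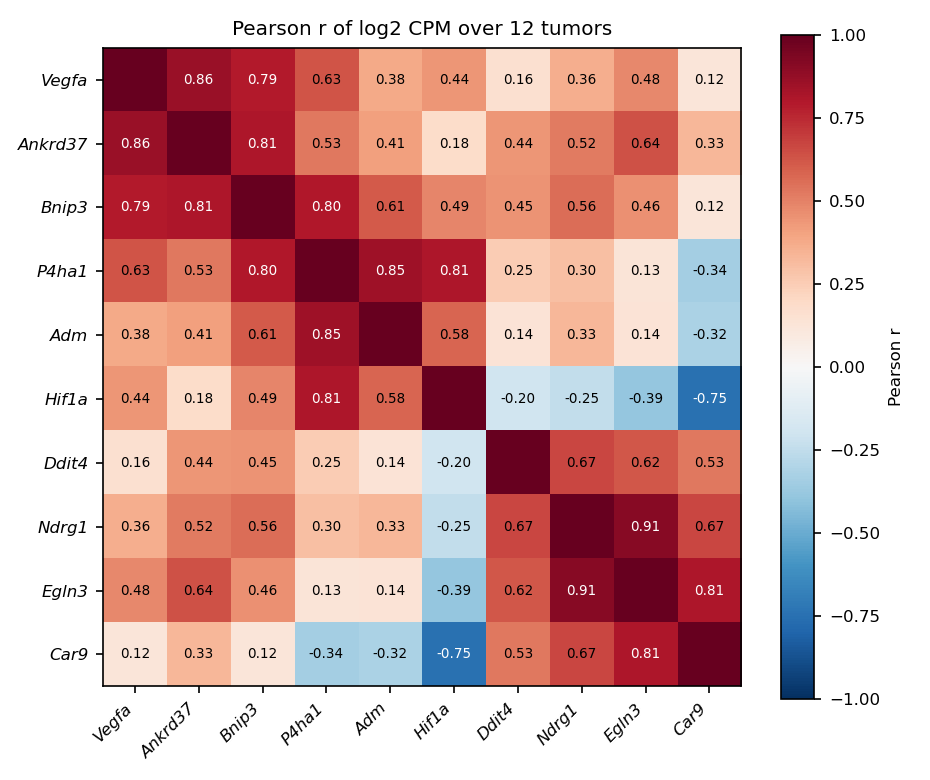
Pearson r of log2 CPM over the 12 tumors for each pair of the 10 genes, from blue (-1) to red (1). Vegfa, Ankrd37 and Bnip3 share r of 0.79 to 0.86, Egln3 and Ndrg1 reach 0.91, and Hif1a against Car9 is the lowest at -0.75.

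Car9, Egln3 and Ndrg1 also followed the epithelial genes of the tumor. Mean log2 CPM of 12 epithelial genes (among them Krt8, Krt18, Krt19, Epcam, Cdh1, Cldn4 and Elf3) was 6.18 to 7.10 in the no-dox, 3.94 to 6.95 in the plus-dox and 5.15 to 6.87 in the off-dox tumors. Plus-dox tumor 2, at 3.94, had 7.76 RPKM of Epcam and 22.1 RPKM of Cdh1, where the means over the 12 tumors were 165 and 109 RPKM, but its Krt8 was 532 RPKM. Car9 had r = 0.95 and rho = 0.83 with that mean (permutation p = 1e-05, the smallest the resamples can give, and 0.0013), and r = 0.77 without plus-dox tumor 2 and off-dox tumor 4. Egln3 had r = 0.79 and rho = 0.79 (permutation p = 0.00092 and 0.0032), and r = 0.67 without the same tumors. For both genes, 9 of the 11 epithelial genes with a mean above 1 RPKM had an r above 0.5 of their own. For Ndrg1 the values were r = 0.63 and rho = 0.68 (permutation p = 0.028 and 0.018). Vegfa (r = 0.08) and Bnip3 (r = 0.05) showed no such relation at this number of tumors. After adjustment over all 145 relations, those of Car9 and Egln3 with the epithelial mean held (adjusted permutation p = 0.00073 and 0.022) and that of Ndrg1 did not. Car9 also had r = 0.80 and rho = 0.69 with the pancreatic lineage genes (permutation p = 0.0015 and 0.018, adjusted 0.027), and r = 0.60 without plus-dox tumor 2 and off-dox tumor 4.

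**Figure D5:**
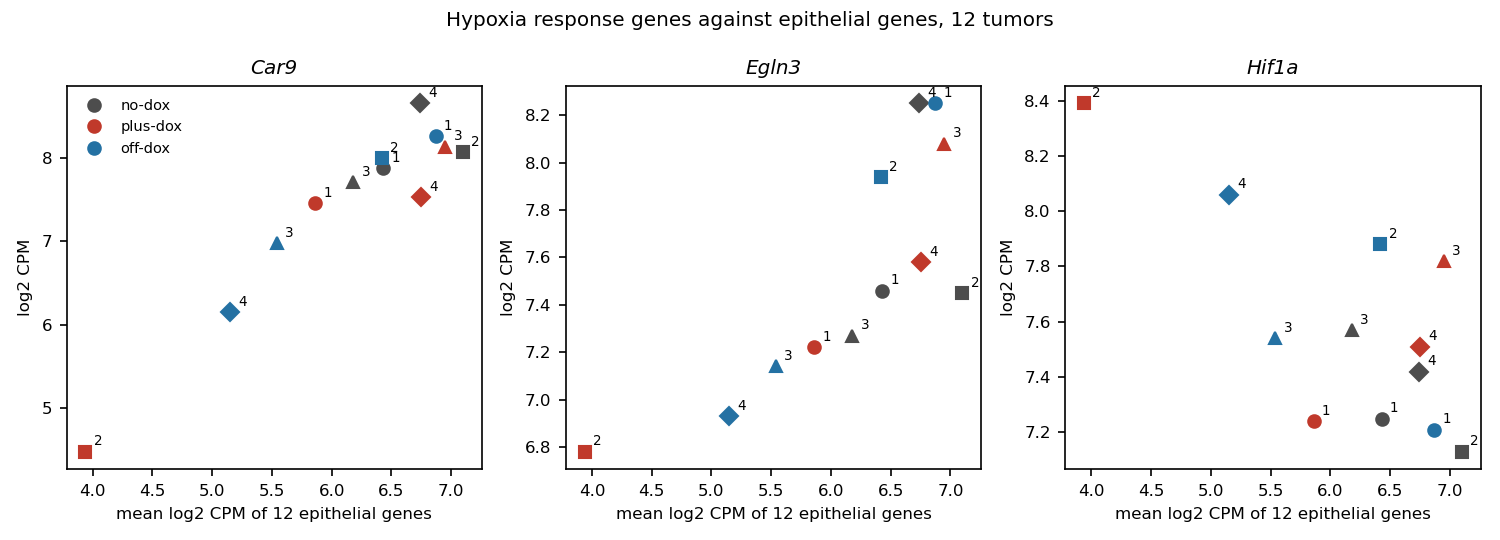
Log2 CPM of Car9, Egln3 and Hif1a (y axes) against the mean log2 CPM of 12 epithelial genes (x axis), 1 point per tumor, colored by group and numbered within it. Car9 rises along the x axis from plus-dox tumor 2 (r = 0.95), whereas Hif1a is highest in that tumor (r = -0.72).

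Hif1a ran the other way, at r = -0.72 and rho = -0.61 with the epithelial mean (permutation p = 0.009 and 0.041), which became r = -0.09 without plus-dox tumor 2 and off-dox tumor 4. With the mean of 12 endothelial genes, from Pecam1 and Cdh5 to Robo4, Hif1a had r = 0.81 and rho = 0.66 (permutation p = 0.0021 and 0.023). That relation was r = 0.58 without plus-dox tumors 2 and 3, and 11 of the 12 endothelial genes had an r above 0.5 with Hif1a. P4ha1 had r = 0.71 and rho = 0.62 with the endothelial mean (permutation p = 0.0074 and 0.037), and r = 0.31 without plus-dox tumors 2 and 3. Summed endothelial RPKM was 60.2 to 86.1 in the no-dox, 73.2 to 205 in the plus-dox and 64.8 to 96.0 in the off-dox tumors, with plus-dox tumor 2 at the top. Hif1a also had r = 0.76 and rho = 0.80 with the mean of 12 T and NK cell genes (permutation p = 0.0037 and 0.0029), and r = 0.83 without no-dox tumor 4 and plus-dox tumor 2, although only 4 of these genes averaged above 1 RPKM. In these immunodeficient hosts, whether such transcripts came from T or NK cells was not tested. With the pancreatic lineage genes Hif1a had r = -0.75 and rho = -0.71 (permutation p = 0.0045 and 0.012), and r = -0.42 without plus-dox tumor 2 and off-dox tumor 4. After adjustment the relations of Hif1a with the T and NK and the pancreatic lineage means held (adjusted permutation p = 0.038 and 0.043), as did that with the endothelial mean (adjusted permutation p = 0.027), whereas those of Hif1a with the epithelial mean and of P4ha1 with the endothelial mean did not. The part of cell composition in these relations was not tested.

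The cell cycle went against several of the 10 genes. With the mean of 10 cell cycle genes, among them Mki67 and Top2a, Egln3 had r = -0.80 and rho = -0.71 (permutation p = 0.0024 and 0.013). Ankrd37 had r = -0.72 and rho = -0.72 (permutation p = 0.0082 and 0.01), and Vegfa had r = -0.71 and rho = -0.69 (permutation p = 0.0098 and 0.015). Without plus-dox tumors 2 and 3, the farthest from the cell cycle median, these were r = -0.70, -0.67 and -0.67. Only the relation of Egln3, of these 3, had an adjusted permutation p under 0.05 (0.027). Adm (r = -0.13), Hif1a (r = 0.17) and P4ha1 (r = -0.22) showed no such relation at this number of tumors.

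Ranking all 12693 other genes with a mean above 1 RPKM by r with each member separated the genes further. Bnip3 was most like Fam162a, a hypoxia-induced mitochondrial gene (r = 0.97, rho = 0.97), then Higd1a (r = 0.89), a mitochondrial survival factor, and the prolyl hydroxylase Egln1 (r = 0.88). P4ha1 was most like Mxi1, a MYC antagonist (r = 0.95), Hilpda, a lipid droplet protein (r = 0.94), and Ptgs2, a prostaglandin synthase (r = 0.92). Of 120 other genes from the pathway lists, which made up 0.945% of the ranked genes, 25 were among the 100 genes most like Bnip3 and 20 among those most like P4ha1. The Bnip3 set included the glycolytic genes Pfkp, Aldoa, Pgk1 and Tpi1, and the P4ha1 set included Lox and Slc2a1.

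Adm was most like Rgs16, Pgf and Ndufa4l2 (r = 0.92 each), of which Pgf is a placental growth factor of the VEGF family, and 13 pathway genes were among its 100. For Ankrd37 the closest were Mxd1 and Arrdc3 (r = 0.91 each) and Pim1 (r = 0.89), with 10 pathway genes. Vegfa was closest to Rlf (r = 0.94), Fam160b1 (r = 0.92) and Vldlr (r = 0.91), with 4. Ndrg1 was closest to Pfkl, a phosphofructokinase (r = 0.92), Lrrfip1 and Egln3 (r = 0.91 each), with 9 pathway genes, and Ddit4 to Fam76a (r = 0.90), the histone demethylase gene Kdm4c (r = 0.89) and Sdc4 (r = 0.87), with 5. Egln3 was closest to Ephb2 (r = 0.96), Lrrfip1 (r = 0.95) and Wasl (r = 0.94), with 2.

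No pathway gene was among the 100 most like Car9 or Hif1a, so these counts and that of Egln3 lay near the share of pathway genes among all ranked genes (0.945%). Car9 was closest to Cdcp1 and Dsg2 (r = 0.99 each) and Ocln (r = 0.98), where Dsg2 and Ocln encode proteins of desmosomes and tight junctions. Without plus-dox tumor 2 and off-dox tumor 4 these were r = 0.92, 0.95 and 0.87. Hif1a was closest to Sema6d, Nes and Arl8a (r = 0.96 each), and these were r = 0.93, 0.91 and 0.90 without the same tumors.

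Other genes of the oxygen response, 125 in 11 lists without the 10 members, rarely met the limits. In plus-dox against no-dox tumors 0 of the 125 met the limits by edgeR and 14 had an unadjusted p under 0.05, and in off-dox against plus-dox tumors the counts were 0 and 5. Of all genes tested, 13.7% and 3.06% had such a p in these comparisons. DESeq2 without moderated fold changes called 1 of the genes in each of these comparisons, where it called 0.729% and 0.0342% of all genes. In off-dox against no-dox tumors 16 had an unadjusted p under 0.05 and 2 met the limits, 1 in each direction, where 20.4% and 1.34% of all genes did so. Wsb1, a ubiquitin ligase adaptor induced by hypoxia, read 36.7, 32.7, 41.3 and 32.1 RPKM in the no-dox tumors and 39.6, 68.6, 64.2 and 54.6 RPKM in the off-dox tumors. Off-dox tumor 1 lay within the no-dox range, and the log2 fold change was 0.70 ± 0.17 (edgeR, adjusted p = 0.088). Mt1, a metal-binding metallothionein, read 312, 238, 273 and 337 RPKM in the no-dox tumors and 182, 177, 193 and 163 RPKM in the off-dox tumors without overlap, a fall of 0.67 on the log2 scale (-0.67 ± 0.13; edgeR, adjusted p = 0.079). No gene of the lists was called when any of the no-dox tumors, plus-dox tumor 3 or 4, or off-dox tumor 2, 3 or 4 was left out, and 4 were called without off-dox tumor 1. Calls over all genes also fell, to 0, 0, 1 and 0 without no-dox tumors 1 to 4. Likewise 0 genes of the lists were called with the share of reads on genes as a covariate, in the fit of 8 tumors or with the replicate block. Over all genes 0, 3 and 0 were called in these fits.

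By role, none of the HIF subunits, hydroxylases and modulators met the limits. Arnt, the partner of the alpha subunits, averaged 15.1 ± 0.917, 15.5 ± 0.582 and 16.1 ± 0.656 RPKM in no-dox, plus-dox and off-dox tumors (SD, n = 4 each), and Epas1, the other main alpha subunit, 8.37 ± 0.972, 9.97 ± 1.75 and 8.08 ± 1.58 RPKM. Among the 19 genes of glucose uptake and glycolysis, Ldha averaged 683 ± 116, 598 ± 125 and 553 ± 85.7 RPKM, and the list's median log2 fold change was 0.06 in plus-dox and 0.02 in off-dox against no-dox tumors. The VEGF and adrenomedullin partners had a median of 0.41 in plus-dox against no-dox tumors, with 2 of 12 genes, the receptor genes Kdr and Nrp2, at an unadjusted p under 0.05 (13.7% of all genes). In the same comparison 6 of 12 endothelial genes, a list that also holds Kdr, had such a p, and their part in the median was not tested. Of these partners, Ramp3, a subunit of the adrenomedullin receptor, averaged 41.8 ± 8.69, 25.8 ± 17.0 and 24.7 ± 9.75 RPKM. Car2, a cytosolic carbonic anhydrase, resembled Car9 in averaging 77.8 ± 37.3, 35.0 ± 19.6 and 51.8 ± 39.7 RPKM, with adjusted p of 0.43 and 0.63 against no-dox tumors by edgeR. Among the genes of collagen modification, 4 of 11 had an unadjusted p under 0.05 in plus-dox against no-dox tumors (13.7% of all genes), as did 5 of 12 fibroblast genes, whose part was not tested. They included Lox, a collagen crosslinking enzyme at 34.8 ± 6.69, 62.2 ± 28.4 and 36.1 ± 6.53 RPKM, and P4hb, the partner of P4ha1 at 660.1 ± 53.4, 504 ± 38.0 and 460.5 ± 101 RPKM. In that comparison the log2 fold change was 0.86 ± 0.30 for Lox and -0.38 ± 0.16 for P4hb (edgeR, adjusted p = 0.33 and 0.35). Lox was 93.2 and 79.2 RPKM in plus-dox tumors 2 and 3 but 34.2 and 42.4 RPKM in plus-dox tumors 1 and 4.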

How the data were processed

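RNA-seq of 12 subcutaneous tumors (4 per group) was used. The authors mapped 50-bp single-end reads of non-stranded polyA libraries to mm9 with TopHat 1.4.1 and merged the RefSeq isoforms of a gene into 1 model, counted without strand. Without strand, reads of overlapping antisense genes cannot be told apart. The submitters' processing notes also name CASAVA 1.8.2, Bowtie 0.12.8 and bedtools 2.16.2. The deposited tables hold, per gene, the authors' expected counts (base-wise exonic coverage, some of them fractional) and the authors' RPKM per summed exon length and total mapped reads. The authors' comparisons were made with DESeq2 and were not used.

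Expected counts were rounded to whole numbers and tested with edgeR 4.0.16 (quasi-likelihood test, TMM, 1 fit of 3 groups, genes with at least 10 counts over the 12 tumors) in R 4.3.3. Adjusted p-values follow Benjamini and Hochberg, taken over 17561 genes. Differential expression required an adjusted p under 0.1, over 1.5-fold, a mean RPKM over 0.25 and a length over 250 bp, the limits of the study's methods. Positive log2 fold changes mean higher in the group named first. Log2 CPM used TMM factors and a prior count of 2. Relations used 100000 permutations, two-sided. All tests take tumors as independent, although 2 tumors grew per mouse and which shared one is not given in the labels, so p-values may be too small.

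Groups came from the sample titles. Tumor numbers did not pair the groups. Replicates of each group differed by far more than sampling noise, and none was counted together. Alternatives were DESeq2 1.42.0, limma-voom (limma 3.58.1), RLE scaling, other count filters, fits of 8 tumors, a replicate block, a covariate and leaving out tumors. Leaving out plus-dox tumors 3 and 4 was added after seeing the data. The edgeR, voom and DESeq2 steps were tested on simulated data. Named were all 10 members, from each pathway list the genes called by edgeR and the 3 with the highest RPKM, and for each member the 3 genes most like it. Epcam, Cdh1 and the examples among the 100 most alike genes were named after their values were seen. The members and lists were chosen with earlier results of these data known. Some named alleles and genes are not reported here.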

Additional observations from a re-analysis of the deposited data

Results flagged for a closer look

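Ndrg1 in no-dox tumor 4 stood apart from the rest of its group, at 221 RPKM where the other 3 no-dox tumors lay between 102 and 115 RPKM. On the log2 CPM scale the gap to its nearest neighbor was 0.833 of the group's range, just above Dixon's 95% critical value for 4 samples. In all, 30 groups (10 genes in 3 groups) were examined and 1 stood out in this way, and chance alone singles out about 1 in 20 groups.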

How the results depend on the processing

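No member met the limits in any of the 3 comparisons under any alternative run. Of 690 log2 fold changes of members under alternatives, 643 kept their direction and side of the adjusted p limit, 45 changed sign without passing it, and 2 passed it while under 1.5-fold (Vegfa, off-dox against no-dox, DESeq2, at 0.55 and, moderated, 0.47). The causes were not tested. With the share of reads on genes as a covariate, the sign turned for Vegfa (-0.13), Ankrd37 (-0.18) and Bnip3 (-0.34) in plus-dox and Bnip3 (-0.35), Egln3 (-0.18) and P4ha1 (-0.06) in off-dox against no-dox tumors, and for Bnip3 (-0.01) in off-dox against plus-dox tumors. Limma-voom turned Egln3 (-0.03, off-dox against no-dox). Without plus-dox tumor 2 and off-dox tumor 4 it turned for Egln3 (0.01, plus-dox against no-dox), Hif1a (0.03) and Ddit4 (-0.06, both off-dox against plus-dox). Without plus-dox tumors 3 and 4 it turned for Vegfa (-0.0044), Ankrd37 (-0.28) and Bnip3 (-0.20) in plus-dox against no-dox tumors and for Ndrg1 (0.31) in off-dox against plus-dox tumors.

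Leaving out single tumors gave log2 fold changes that crossed 0 in plus-dox against no-dox tumors for Ankrd37 (-0.24 to 0.15), Bnip3 (-0.20 to 0.22), Egln3 (-0.43 to 0.10) and Ndrg1 (-0.50 to 0.14). The same held in off-dox against no-dox tumors for Egln3 (-0.25 to 0.27) and Ndrg1 (-0.56 to 0.03), and in off-dox against plus-dox tumors for Hif1a (-0.24 to 0.16), Car9 (-0.17 to 0.58), Bnip3 (-0.04 to 0.38), Egln3 (-0.09 to 0.44), Ndrg1 (-0.34 to 0.17) and Ddit4 (-0.14 to 0.16).

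Over all genes, DESeq2 called 128 (moderated, 90) in plus-dox and 615 (396) in off-dox against no-dox tumors and 6 (4) in off-dox against plus-dox tumors, where edgeR called 0, 235 and 0. Off-dox against no-dox counts were 122 without a count filter, 365 with at least 10 counts in every tumor, 3 in the fit of 8 tumors, 471 without plus-dox tumor 2 and off-dox tumor 4, 11 without plus-dox tumors 3 and 4, and 0 at an adjusted p under 0.05 or with the covariate. Leaving out single tumors gave 0 to 3, 0 to 789 and 0 to 1 genes. Of the pathway genes, DESeq2 without moderated fold changes called 1 in plus-dox against no-dox and 1 in off-dox against plus-dox tumors. In off-dox against no-dox tumors the 2 called became 1 without a filter, 5 without plus-dox tumor 2 and off-dox tumor 4, and 0 in the fit of 8 tumors, at 0.05, with the covariate or without plus-dox tumors 3 and 4, and were 0 to 4 when single tumors were left out. Members whose groups did not overlap numbered 0 to 2 in each comparison when single tumors were left out, and 1 in off-dox against no-dox tumors with RLE scaling or in RPKM. The share of all genes that did so under these settings is not given here.

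Tumor numbers did not pair the groups. The mean correlation of deviations was -0.088 over 12 same-numbered and 0.043 over 36 other pairs, with 2 of the 12 above 0.1. With the number as a replicate block, 0 genes, 0 pathway genes and 0 members were called in off-dox against no-dox tumors. With 4 tumors per group and an SE of 0.19 to 0.61 in the log2 fold changes of members, small differences could not be resolved.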
